A study of Mus musculus with 18 samples.

Results

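Maturation in vitro was examined in oocytes of 12-month-old mice by setting oocytes that had reached metaphase II in culture (IVM-MII-12m, 3 oocytes) against germinal vesicle oocytes of the same age (GV-12m, 3 oocytes). These 6 oocytes were taken by their source labels from a series of 18, and all genes were compared: 12037 of the 47069 listed had enough counts. The series profiled single mouse oocytes by SMART-seq2 (full-length cDNA primed on the poly(A) tail) at 6 weeks and 12 months of age and after maturation with or without cells abbreviated MSC in the labels, which do not spell the term out. Both groups used here came from C57BL/6 wild-type mice of 12 months, and neither had been cultured with MSC. Each oocyte was lysed mildly, its nucleus was pelleted, and the supernatant was made into a library. Metaphase II oocytes have no nuclear envelope, so the pellet need not have held the same RNA in both groups, which was not tested. The labels tie no oocyte to an animal, a litter or a dish, so each group counted as 1 sample: the values below are given per oocyte, the SD covers oocytes only, and no p-value is given.

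A germinal vesicle oocyte is held in prophase of the first meiotic division. When meiosis resumes, the nuclear envelope breaks down, the first polar body is extruded and the egg waits at metaphase II for the sperm. Transcription is silent throughout, so the mRNA pool is drawn down, and which mRNAs are translated depends largely on their poly(A) tails. Many housekeeping mRNAs lose their tails and are degraded on the way, while stored mRNAs with a cytoplasmic polyadenylation element in the 3' untranslated region gain a longer tail and are loaded onto ribosomes. Unless given as TPM or as a share of counts, levels below are CPM, the counts of a gene scaled to the TMM-adjusted total of its library. The adjusted total was 0.923, 0.923 and 1.03 times the plain total in MII oocytes 1 to 3. In GV oocytes 1 to 3 it was 0.711, 0.865 and 1.41 times the plain total, so sums of CPM are not shares of counts. CPM values are relative to the other mRNAs of the same oocyte. A higher value in MII oocytes therefore need not mean more molecules, and a lower one may mean fewer molecules or shorter tails, which these libraries cannot tell apart.

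The 6 libraries held 4583562 to 8948887 counts per MII oocyte and 4679473 to 9193559 counts per GV oocyte. MII oocytes had 10258 to 11858 genes with a count, and GV oocytes had 14706 to 16036. Thinned to 4583562 counts each, the ranges were 10129 to 11353 genes in MII oocytes and 14354 to 16009 in GV oocytes. Across genes, the correlation of log2 values was 0.807 to 0.839 between MII oocytes, 0.770 to 0.919 between GV oocytes and 0.614 to 0.736 between the groups. GV oocyte 3 stood apart. The summed level of 29 cumulus and granulosa markers was 177, 207 and 260.5 CPM in MII oocytes, against 256, 159 and 2254 CPM in GV oocytes. Serpine2 alone made most of the MII sums, at 141, 176 and 217 CPM, against 18.7, 48.7 and 276 CPM in GV oocytes. The hormone subunit gene Inha reached 917 CPM in GV oocyte 3 and the gap junction gene Gja1 674 CPM, and other markers high there were Hsd17b1 (137.6 CPM), Inhba (91.5 CPM), Nr5a1 (26.5 CPM) and Vcan (25.5 CPM). Inha also had 85.1 and 48.0 CPM in GV oocytes 1 and 2, against 0, 0.401 and 0 CPM in MII oocytes. GV oocyte 1 held 44.8 CPM of Hsd3b1 and 40.5 CPM of Cyp11a1, both at most 0.200 CPM in MII oocytes. Of the granulosa-defining genes, Fshr had 6.97 CPM in GV oocyte 3 and at most 0.251 CPM in the others, and Foxl2 and Amh stayed at or below 0.754 CPM in all 6 oocytes. Summed mesenchymal markers were 24.3, 17.6 and 10.8 CPM in MII oocytes, against 61.3, 28.7 and 29.7 CPM in GV oocytes. Blood and immune markers summed to 34.3, 15.2 and 9.34 CPM in MII oocytes, against 15.8, 15.5 and 29.4 CPM in GV oocytes. The part of somatic RNA in the results was not tested. Where leaving out GV oocyte 3 or any other single oocyte turned the sign of a list's median, or moved one past 2-fold by over 1.5 times, the value without that oocyte is given beside it.

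Far more genes were lower in MII oocytes than were higher. The difference of a gene is the mean log2(CPM + 1) in MII oocytes minus that in GV oocytes. By at least 2-fold, 4690 genes were lower (39% of those tested) and 1938 were higher (16.1%), and by at least 4-fold 2481 were lower (20.6%) and 375 higher (3.12%). The median over all genes was -0.52, with quartiles of -1.74 and 0.57, and 5409 genes (44.9%) lay within 2-fold. Counts of list members below are read beside the 39% and 16.1%. All MII oocytes were below all GV oocytes for 3155 genes (26.2%) and above them for 1355 (11.3%). Without GV oocyte 3, 4593 genes were lower and 2217 higher, with a median of -0.43. The composition shifted accordingly: the genes lower by 2-fold took 11.2, 9.36 and 14.96% of counts in MII oocytes 1 to 3, against 56.3, 53.2 and 49.6% in GV oocytes. The genes higher by 2-fold took 56.1, 60.5 and 52.5% in MII oocytes, against 15.3, 17.1 and 19.6% in GV oocytes. Because these groups of genes were picked by the difference itself, their shares describe its size and nothing more.

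**Figure D1:**
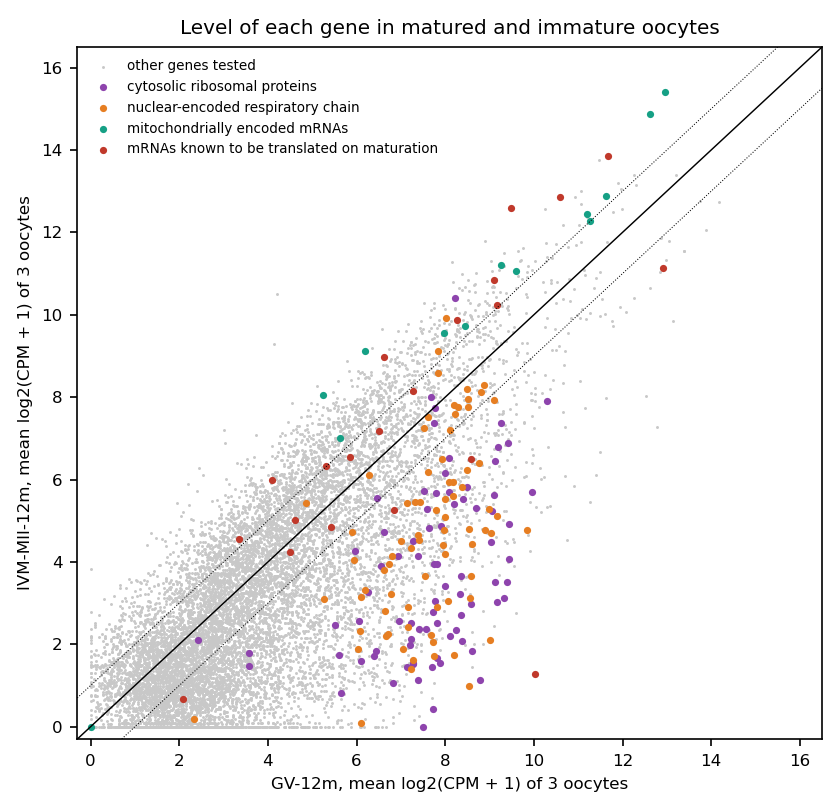
Each point is a gene, with its mean log2(CPM + 1) in MII oocytes (vertical) against that in GV oocytes (horizontal), 3 oocytes each. Coloured points are members of the lists named in the legend and dotted lines mark a 2-fold difference. Ribosomal protein genes lie below the lower line (74 of 80) and mitochondrially encoded mRNAs above the upper one (12 of 13).

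Meiotic progression is run by cyclin B and CDK1, and the egg is held at metaphase II by the kinase MOS acting through MAP kinase. Mos mRNA (chromosome 4) had 1.33, 0 and 5.10 CPM in MII oocytes, against 1973, 1056 and 546 CPM in GV oocytes. It was near 0 in all 3 MII oocytes and abundant in all 3 GV oocytes, a mean of 2.14 ± 2.64 CPM against 1192 ± 723 CPM (SD, n = 3 oocytes each), 556-fold lower in MII. Cdk1, the catalytic subunit, had 11.1, 0.401 and 46.1 CPM in MII oocytes and 739, 469 and 152 CPM in GV oocytes, which is 23.6-fold lower in MII with no overlap between the groups. Its cyclin partner Ccnb1 showed the opposite order: 1182, 1030.3 and 1415 CPM in MII oocytes, against 489, 684 and 559 CPM in GV oocytes, 2.09-fold higher in MII. Every MII oocyte was above every GV oocyte, as they were for Ccnb2, which averaged 797 ± 208 CPM in MII and 534 ± 164 CPM in GV oocytes (1.49-fold). Cyclin A2 (Ccna2), which also binds CDK1, had 193, 866 and 959.6 CPM in MII oocytes and 46.3, 89.0 and 101.3 CPM in GV oocytes, 8.53-fold higher in MII, and the small CDK-binding protein gene Cks1b averaged 1859 ± 300.4 CPM against 369 ± 78.4 CPM in GV oocytes. Of 22 measured cyclins and CDK1 regulators, 4 were higher and 5 lower by 2-fold, with a median of 0.17 (-0.12 without GV oocyte 1).

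In the Mos-MAPK cascade 2 of 9 members were higher and 6 lower, with a median of -2.08. The kinase that MOS phosphorylates, Map2k1, had 196, 302 and 259.9 CPM in MII oocytes, against 17.4, 61.6 and 124 CPM in GV oocytes. Its mRNA was thus 3.73-fold higher in MII without overlap. Downstream, Mapk3 (ERK1) had 46.1, 35.7 and 31.2 CPM in MII oocytes and 499.9, 304.2 and 171 CPM in GV oocytes, 8.63-fold lower in MII. The anaphase-promoting complex, the ubiquitin ligase that destroys cyclin B, had 3 of 20 members higher and 7 lower (median -0.18). These 15% and 35% were close to the 16.1% and 39% of all genes. The subunit Anapc10 of the complex was 4.74-fold higher, at 357 ± 20.8 CPM in MII against 75.2 ± 20.2 CPM in GV oocytes. The E2 enzyme that works with it, Ube2c, was 23.5-fold lower, at 21.4 ± 13.4 CPM in MII against 502.5 ± 315 CPM in GV oocytes. For its activators, Fzr1, which keeps prophase arrest, averaged 8.23 ± 5.64 CPM in MII and 68.3 ± 42.8 CPM in GV oocytes, while Cdc20, which triggers anaphase, had 254, 63.9 and 288 CPM in MII and 201, 189 and 101.043 CPM in GV oocytes and overlapped.

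**Figure D2:**
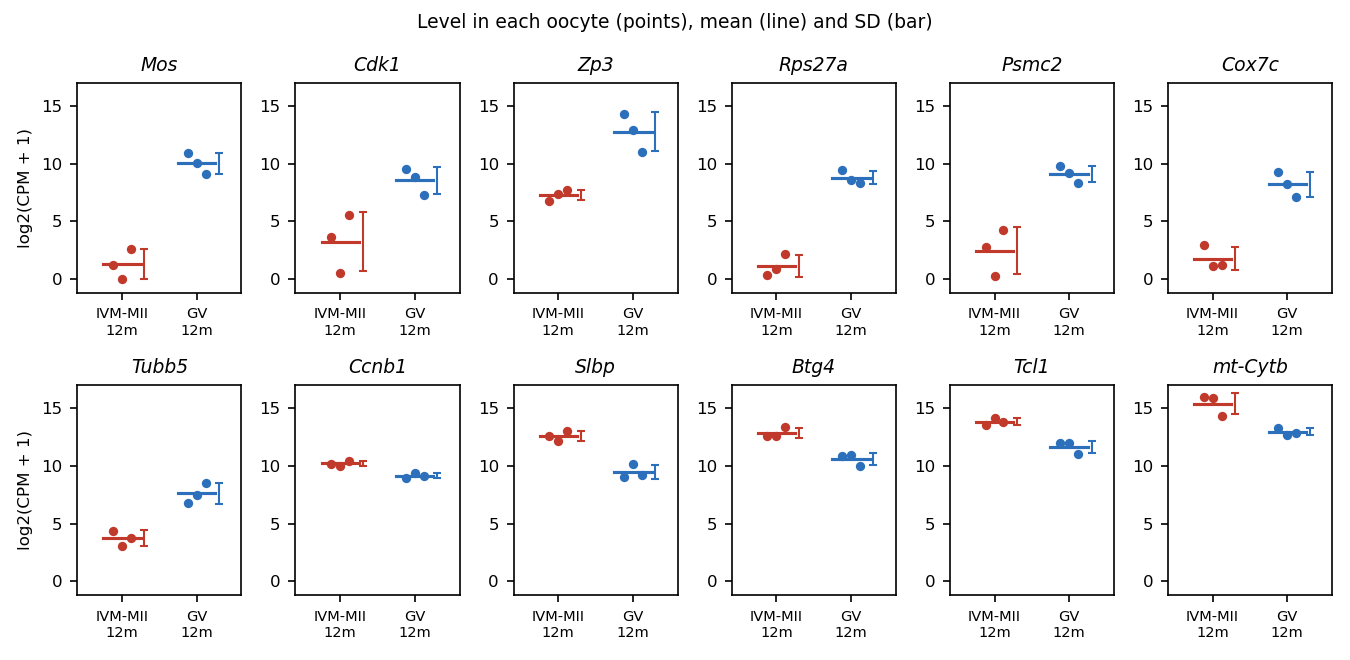
Values of 12 genes in each oocyte on a log2(CPM + 1) axis, MII oocytes left of GV oocytes, with the mean and SD of 3 oocytes. Mos, Cdk1, Zp3, Rps27a, Psmc2, Cox7c and Tubb5 are lower in every MII oocyte than in any GV oocyte, and Ccnb1, Slbp, Btg4, Tcl1 and mt-Cytb are higher in every MII oocyte.

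A list of 21 mRNAs known from mouse oocytes to be translated on maturation had 10 members higher by 2-fold and 5 lower, with a median of 0.90 beside -0.52 over all genes. Without GV oocyte 1 the median was 0.42, and without any other 1 oocyte it was 0.60 to 1.13. Slbp, which binds and protects histone mRNAs, had 6325, 4617 and 8242 CPM in MII oocytes, against 527, 1154 and 602 CPM in GV oocytes, 8.40-fold higher in MII. Tcl1, an AKT co-activator needed for early cleavage, had 12304, 18328 and 14254 CPM in MII oocytes and 4000.1, 4029 and 2141 CPM in GV oocytes (4.41-fold). Btg4, the adaptor that brings deadenylase to maternal mRNA, had 6371, 6341 and 10355 CPM in MII oocytes and 1873, 1919 and 1028 CPM in GV oocytes (4.79-fold). In none of these did the groups overlap. The purine salvage enzyme gene Hprt had 822, 265 and 580.4 CPM in MII oocytes, against 102.02, 116 and 76.8 CPM in GV oocytes (5.65-fold), and Dazl, an RNA-binding activator of translation, had 1918, 2215 and 1457 CPM against 771, 811 and 269 CPM in GV oocytes (3.02-fold). Apela, which encodes a small secreted peptide and was not on the list, had 2799, 3502 and 4527 CPM in MII oocytes and 236, 710.2 and 641 CPM in GV oocytes (6.82-fold). The list was not uniform. Mos belongs to it, and Plat, the tissue plasminogen activator, had 31.0, 92.8 and 242 CPM in MII oocytes, against 168, 528 and 630.3 CPM in GV oocytes, with overlap. The checkpoint kinase gene Bub1b averaged 38.6 ± 12.6 CPM in MII and 120.2 ± 49.9 CPM in GV oocytes.

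The 3' untranslated regions of 6 of these higher mRNAs show the element that calls for cytoplasmic polyadenylation, TTTTAT or TTTTAAT, in capitals below. Each is a 30-base stretch around the last such element, written 5' to 3' on the mRNA strand in DNA letters, from GRCm38 with the GENCODE M21 annotation. The stretches lie at chr12:105216797-105216826 (minus strand) for Tcl1, chr9:51119797-51119826 (plus) for Btg4, chr8:65028454-65028483 (minus) for Apela, chr13:100778776-100778805 (minus) for Ccnb1, chr5:33640199-33640228 (minus) for Slbp and chrX:53021443-53021472 (plus) for Hprt.
Tcl1: gaatgtgtgggaTTTTATgtggttctattt
Btg4: agataaatccctTTTTATgtctttttaaaa
Apela: acacatgaatgaTTTTATtgcacattatta
Ccnb1: tctcatttgctgTTTTAATttatacatctg
Slbp: agaactttgtttTTTTAATgatcagttaat
Hprt: tggtaTTTTAATTTTTATatattcaggaga
Counted from its first base, the element stood 65 bases from the end of the transcript in Tcl1, 67 in Btg4, 55 in Apela, 144 in Ccnb1, 162 in Slbp and 205 in Hprt. Tcl1 had 1 such element in its 962-base 3' untranslated region, Btg4 5 in 521 bases, Apela 3 in 576, Ccnb1 4 in 1028, Slbp 4 in 757 and Hprt 4 in 545. In Hprt the capitals cover a TTTTAAT and a TTTTAT that follows it directly, without a shared base.

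For contrast, the last 30 bases of the 3' untranslated region are shown for 4 mRNAs that were lower in MII oocytes, with the polyadenylation signal AATAAA in capitals. They lie at chr4:3870657-3870686 (minus strand) for Mos, chr11:29545846-29545875 (minus) for Rps27a, chr13:86044816-86044845 (minus) for Cox7c and chr5:21803758-21803787 (plus) for Psmc2.
Mos: ttttaggaAATAAAgttaccacgaacttca
Rps27a: gtatgcgttAATAAAaagaaggaactcgta
Cox7c: aaaattgtaAATAAActaatgacataaaga
Psmc2: cgcacaaaAATAAAagatttaaaaactgtg
In the annotated transcript these 3' untranslated regions measured 126 bases for Mos, 34 for Rps27a, 119 for Cox7c and 83 for Psmc2, and held 0 copies of TTTTAT or TTTTAAT. For Mos this describes 1 annotated transcript, and other ends of the mRNA were not examined. Mos is also on the list of mRNAs known to be translated on maturation. Its 0 copies here do not show that the mRNA lacks the element. The 4 are examples and do not stand for all lower coding genes, of which 44.6% held such a copy. Of the 21 mRNAs known to be translated on maturation 18 held one, 9 of them in the last 100 bases.

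Across 10684 coding genes with an annotated 3' untranslated region, TTTTAT or TTTTAAT stood somewhere in that region in 78.6% of the genes higher in MII oocytes by 2-fold, 44.6% of the genes lower and 60.4% of all. In the last 100 bases the shares were 28.6% of the higher genes, 13.6% of the lower genes and 19.5% of all. Genes with the element anywhere had a median difference of -0.17, and genes without it had one of -1.26. With the longest annotated region in place of the main one, the shares were 80.4% of higher, 47.5% of lower and 63.0% of all genes. Motifs were searched on the mRNA strand only, and overlaps between motifs were kept. Other short elements differed in the same direction: the AU-rich TATTTAT was in 36.4% of higher, 20.3% of lower and 27.9% of all genes, and the Pumilio motif TGTANATA in 31.0% of higher, 17.7% of lower and 25.02% of all. The plain AATAAA signal in the last 50 bases differed less, at 66.5% of higher, 60.4% of lower and 64.4% of all genes.

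Length and base composition moved with these shares. The median 3' untranslated region was 1195 bases in the higher genes, 626 in the lower and 952 in all. Its A and T content was 59.8% in the higher genes, 53.9% in the lower and 56.5% in all. Longer and more AT-rich regions hold any T-rich motif more often, so genes were also compared within 5 bins of length by whether the element stood in the last 100 bases. In the shortest bin (1 to 296 bases) 320 genes with the element had a median difference of -0.22 and 1823 without it one of -1.67. At 297 to 676 bases the medians were -0.04 with and -0.97 without, at 677 to 1290 bases -0.05 and -0.48, at 1291 to 2378 bases 0.13 and -0.30, and above that -0.13 and -0.30. The gap was widest among short regions and narrowed with length. Without GV oocyte 3 the medians in the shortest bin were -0.29 with and -1.83 without the element, and in the longest bin 0.11 and -0.03. In 5 bins of AT content, from low to high, genes with the element had medians of -0.55, -0.47, -0.00, 0.20 and 0.13, and genes without it -1.41, -0.97, -0.55, -0.16 and -0.17. A match is a description of the letters, and the part of length and composition in the difference was not tested further.

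**Figure D3:**
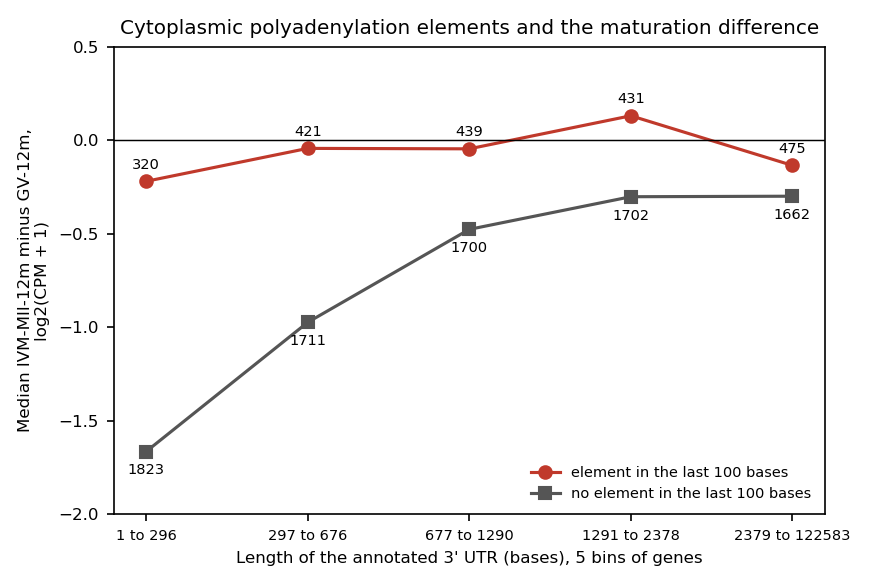
Median difference (MII minus GV, log2(CPM + 1)) of genes with and without TTTTAT or TTTTAAT in the last 100 bases, in 5 bins of 3' untranslated region length, with the number of genes printed at each point. In the shortest bin the medians are -0.22 with and -1.67 without the element, and in the longest bin -0.13 and -0.30.

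The factors that shorten tails and remove caps were spread in both directions. Of 25 CCR4-NOT deadenylase subunits and adaptors 3 were higher and 4 lower (median -0.15, but 0.57 without GV oocyte 3, 0.28 without MII oocyte 2 and 0.15 without MII oocyte 3). Besides Btg4, the associated ubiquitin ligase Cnot4 was higher, at 280.3 ± 62.7 CPM in MII against 45.6 ± 18.3 CPM in GV oocytes, and Cnot7, a catalytic subunit, was 1.97-fold higher at 301.5 ± 129 CPM against 153 ± 16.8 CPM in GV oocytes. Its partner Cnot6l had 106, 20.8 and 9.34 CPM in MII oocytes and 16.9, 43.2 and 99.8 CPM in GV oocytes and overlapped. Of 31 decapping, uridylation and exonuclease genes 6 were higher and 6 lower (median 0.05, but -0.33 without MII oocyte 1 and -0.16 without GV oocyte 1), and the decapping enzyme gene Dcp2 averaged 62.2 ± 4.73 CPM in MII against 15.96 ± 1.14 CPM in GV oocytes. Among 34 storage and polyadenylation factors 8 were higher and 13 lower (median -0.24). Zar1l, which binds stored mRNA, had 8.96, 16.6 and 29.7 CPM in MII oocytes, against 1024, 626 and 308 CPM in GV oocytes, 35.4-fold lower in MII. The poly(A) polymerase gene Papola was 6.77-fold lower (16.9 ± 13.1 CPM in MII, 114 ± 15.998 CPM in GV oocytes) and Ybx2, a packaging protein of stored mRNA, 3.68-fold lower (13.7 ± 6.67 CPM in MII, 50.6 ± 17.2 CPM in GV oocytes). In the other direction stood Igf2bp3, which stabilises maternal mRNA, at 66.8 ± 20.6 CPM in MII and 11.5 ± 2.48 CPM in GV oocytes, and the oocyte cap-binding protein gene Eif4e1b, at 192 ± 94.4 CPM in MII and 47.5 ± 32.4 CPM in GV oocytes. Cpeb1, which binds the polyadenylation element itself, had 16.2, 13.6 and 46.5 CPM in MII oocytes and 29.8, 85.2 and 125 CPM in GV oocytes, with overlap.

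The mRNAs of the ribosome were lower as a body. Of 80 cytosolic ribosomal protein genes 74 were lower by 2-fold and 1 was higher, with a median of -4.33. Their summed level was 4496, 3977 and 4342 CPM in MII oocytes, against 36058, 19988 and 17237 CPM in GV oocytes. Rps27a, which encodes a ubiquitin fused to a small-subunit protein, had 0.242, 0.802 and 3.61 CPM in MII oocytes and 694, 389.9 and 317 CPM in GV oocytes, 301.05-fold lower in MII. Rpl3, which helps form the peptidyl transferase centre, had no count in the MII oocytes (exact Poisson 95% interval 0 to 3.69 counts over the group) and 203, 101.8 and 275 CPM in GV oocytes. Against a floor of 3 counts per library this was at least 362-fold lower in MII. The large-subunit gene Rpl23a averaged 0.485 ± 0.839 CPM in MII and 237 ± 154 CPM in GV oocytes, and the small-subunit gene Rps13 averaged 5.10 ± 6.91 CPM in MII and 482 ± 364 CPM in GV oocytes. A few members did not share this: Rplp2 of the stalk averaged 226 ± 89.8 CPM in MII and 245 ± 148 CPM in GV oocytes, and Rps15a also overlapped. The exception on the high side was Rps27l, with 1403, 1382 and 1277 CPM in MII oocytes, against 516, 272 and 185 CPM in GV oocytes. Ribosomal protein genes have many processed pseudogenes, and how the counting split shared reads is uncertain.

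Ribosomal protein mRNAs have short 3' untranslated regions: the median of the 80 was 89 bases (28 to 4728), and 17 held TTTTAT or TTTTAAT, 9 of them in the last 100 bases. An annotated start on a run of pyrimidines, the mark by which growth signals control these mRNAs, was found in 8 of the 80 at the annotated first base and in 19 within 5 bases of it. Among all genes that start was found at the first base in 1.93% of the higher genes, 2.49% of the lower genes and 2.20% of all, and within 5 bases in 10.1% of the higher genes, 10.8% of the lower genes and 10.9% of all. Annotated first bases were not checked against measured ones, so these counts and shares cannot tell which mRNAs carry the mark. Mitochondrial ribosomal proteins, which are encoded in the nucleus and translated in the cytosol, had 64 of 78 members lower and 0 higher (median -2.61), with Mrpl12 at 4.36 ± 3.69 CPM in MII and 366 ± 154 CPM in GV oocytes. Of 53 initiation factors 24 were lower and 8 higher (median -0.57), close to the median of all genes. The eIF3 subunit gene Eif3g had 0.242, 12.0 and 2.97 CPM in MII oocytes and 867, 452 and 250.3 CPM in GV oocytes, 102.975-fold lower in MII. The cap-binding factor gene Eif4e averaged 379 ± 197 CPM in MII and 375 ± 71.0 CPM in GV oocytes and overlapped. Of 11 elongation factors 5 were lower and 0 higher (median -0.65), led by Eef2 (12.99-fold) and Eef1a1 (11.7-fold). GV oocyte 3 had the highest value of both, 224 CPM for Eef2 and 1242 CPM for Eef1a1. Of 19 aminoacyl-tRNA synthetases, with a median of -0.97, 9 were lower (47.4%) and 3 higher (15.8%), beside 39% and 16.1% of all genes.

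**Figure D4:**
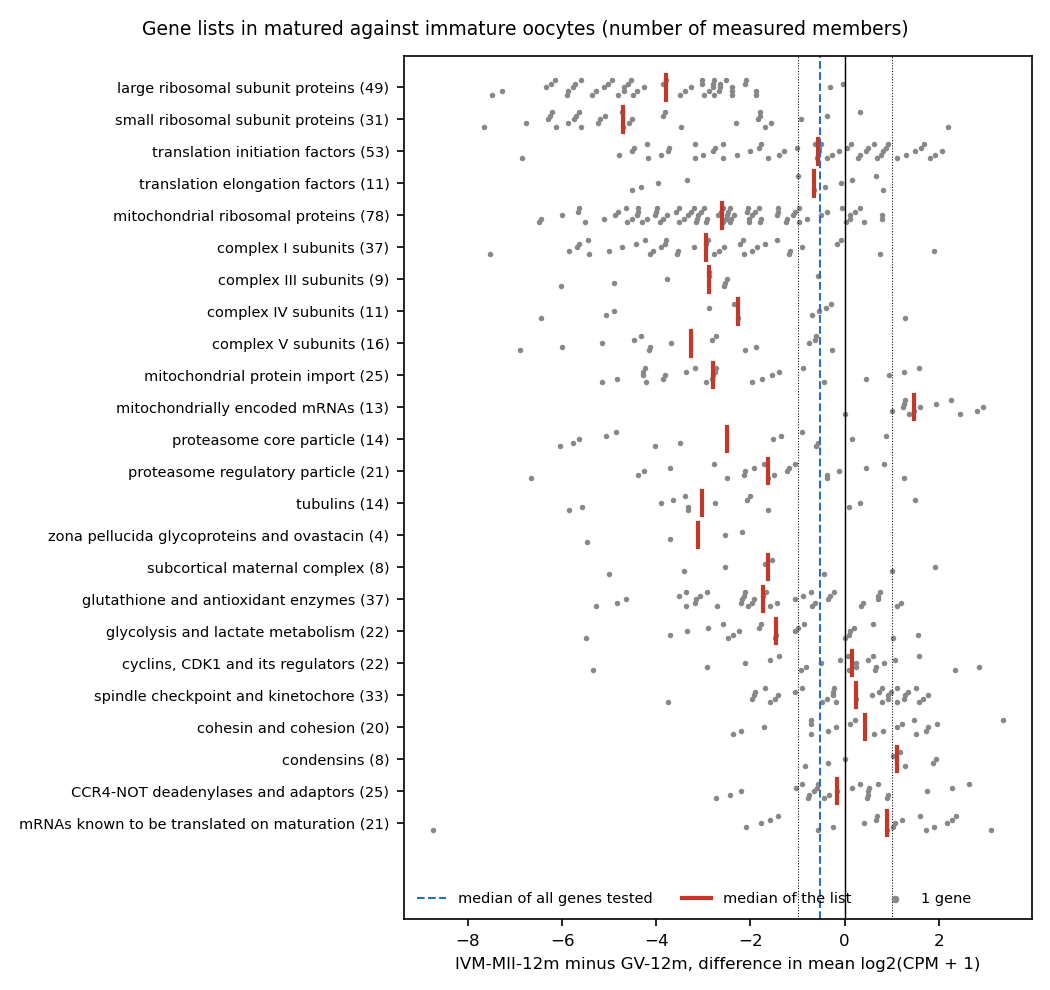
Difference (MII minus GV, log2(CPM + 1)) of each measured member (grey) of 24 gene lists with the list's median (red); the dashed line is the median over all genes, -0.52. Ribosomal proteins, respiratory complexes I, III, IV and V (the ATP synthase), zona proteins and tubulins have medians of -2.26 or less. Mitochondrially encoded mRNAs have one of 1.46 and condensins one of 1.11.

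Mitochondrial mRNAs divided by the genome they come from. The oocyte supplies the embryo with all its mitochondria, and respiratory complexes combine subunits from the nucleus with 13 encoded by mitochondrial DNA. Of 77 nuclear-encoded subunits 61 were lower by 2-fold and 2 higher (median -2.82), with sums of 8280, 6124 and 6836 CPM in MII oocytes and 35344, 18730 and 10672 CPM in GV oocytes. By complex, 32 of 37 members of complex I were lower (median -2.95), 3 of 4 of complex II (-1.94), 8 of 9 of complex III (-2.87), 6 of 11 of complex IV (-2.26, and -1.15 without MII oocyte 2) and 12 of 16 of the ATP synthase (-3.26). The complex I subunit gene Ndufa9 had 0.121, 1.603 and 1.70 CPM in MII oocytes, against 833, 414 and 145 CPM in GV oocytes, 406.9-fold lower in MII. The ATP synthase stalk gene Atp5o averaged 4.85 ± 4.84 CPM in MII and 578 ± 352 CPM in GV oocytes. Cox7c of cytochrome oxidase had 6.54, 1.20 and 1.27 CPM in MII oocytes and 618, 294 and 138 CPM in GV oocytes (116-fold lower), while Cox5b of the same complex had 477, 282 and 189.6 CPM in MII and 729, 330.1 and 195 CPM in GV oocytes and overlapped. Of the 77, 13 held TTTTAT or TTTTAAT, 5 of them in the last 100 bases, and the median 3' untranslated region was 175 bases.

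In contrast, 12 of the 13 mitochondrially encoded mRNAs were higher in MII oocytes, none was lower and mt-Nd4l had no count in any of the 6 oocytes (median of the 13, 1.46). Their sum was 129468, 151885 and 51528 CPM in MII oocytes, against 30618, 19767 and 24800 CPM in GV oocytes. Cytochrome b (mt-Cytb) had 65631, 61216 and 20656 CPM in MII oocytes and 10108, 6635 and 7608 CPM in GV oocytes, 6.06-fold higher in MII. The ATP synthase subunit mt-Atp8 had 1108, 606 and 257 CPM in MII oocytes and 108, 56.8 and 60.7 CPM in GV oocytes (8.76-fold). For mt-Nd1 and mt-Co2 the groups overlapped, and MII oocyte 3 had the lowest MII value of all 4 of these mRNAs. Counts of the 37 mitochondrially encoded genes made up 12.2, 14.9 and 6.04% of the counts in MII oocytes and 2.45, 1.90 and 3.65% in GV oocytes. More mitochondrial mRNA and less cytosolic mRNA in a library cannot be told apart from these shares.

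Among the nuclear genes that maintain mitochondria, those of protein import were mostly lower. Of 25 import genes 19 were lower and 2 higher (median -2.80), among them the outer-membrane receptor gene Tomm20 at 2.24 ± 2.55 CPM in MII and 71.2 ± 4.09 CPM in GV oocytes. Of 16 genes for the upkeep and transcription of mitochondrial DNA 9 were lower and 2 higher (median -1.04, and -0.64 without MII oocyte 3). Slirp, which stabilises mitochondrial mRNA, was 95.6-fold lower (0.995 ± 1.55 CPM in MII, 95.2 ± 48.1 CPM in GV oocytes), whereas Tfb2m, which opens mitochondrial promoters, was 4.13-fold higher (34.2 ± 5.22 CPM in MII, 8.29 ± 2.79 CPM in GV oocytes). Mcu, the pore through which mitochondria take up calcium, was 5.46-fold higher (391.6 ± 104.9 CPM in MII, 71.8 ± 32.9 CPM in GV oocytes). Fission and fusion genes had 2 of 11 members higher and 4 lower (median -0.02, and 0.50 without GV oocyte 3).

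Subunits of the proteasome, which degrades ubiquitin-marked proteins, were mostly lower. Of the 14 subunits of the proteasome core 9 were lower and 0 higher (median -2.51), and of the 21 of its regulatory cap 15 were lower and 1 higher (median -1.63). The ATPase gene Psmc2 had 5.94, 0.200 and 18.5 CPM in MII oocytes, against 873, 590.4 and 319.6 CPM in GV oocytes, 72.5-fold lower in MII, and the core gene Psmb4 averaged 8.82 ± 9.37 CPM in MII and 545 ± 366 CPM in GV oocytes. Psmb3, also of the core, had 401, 260.3 and 507 CPM in MII oocytes and 618, 290.2 and 215 CPM in GV oocytes and overlapped. Ubiquitin itself (Ubb) had 2739.5, 598 and 478 CPM in MII oocytes and 14323, 11982 and 4255 CPM in GV oocytes, 8.01-fold lower in MII, and the E2 enzyme gene Ube2t was 22.5-fold lower. Of 43 ubiquitin and SUMO conjugation genes 19 were lower and 8 higher (median -0.67). Of 31 SCF ligase genes 12 were lower and 5 higher (median -0.38). The shares, 44.2% and 18.6% for conjugation and 38.7% and 16.1% for SCF, were close to the 39% and 16.1% of all genes. The chaperonin TRiC, which folds tubulin and actin, had 6 of 8 members lower (median -1.37). Of 20 cytosolic heat shock genes 9 were lower and 1 higher (median -0.59): Hspa8 averaged 28.7 ± 39.1 CPM in MII and 687 ± 443 CPM in GV oocytes, and Hsp90aa1 averaged 2353 ± 1074 CPM in MII and 2353 ± 844 CPM in GV oocytes. Autophagy genes (14 of 27 lower, 5 higher, median -1.05) and lysosomal genes (18 of 36 lower, 4 higher, median -1.18) were also below the median of all genes.

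The metaphase II egg holds a spindle of tubulin, and 11 of 14 tubulin genes were lower with 1 higher (median -3.04). The beta-tubulin gene Tubb4b had 169.8, 405 and 230.3 CPM in MII oocytes, against 6791, 3473 and 1334 CPM in GV oocytes, and Tubb5 had 19.99, 7.21 and 12.3 CPM in MII oocytes and 109, 181 and 374 CPM in GV oocytes. Tuba1b was 44.3-fold lower in MII, while Tubb3 had 317, 597 and 595 CPM in MII and 479, 511 and 229 CPM in GV oocytes and overlapped. Other spindle genes were centred above the median of all genes. Of 33 spindle assembly genes and Aurora and Polo kinases 11 were higher and 10 lower (median 0.26), and of 33 checkpoint and kinetochore genes 9 were higher and 9 lower (median 0.25). Without GV oocyte 1 these medians were 0.0061 and -0.019. Plk4, the kinase of centriole duplication, was 3.80-fold higher (239 ± 6.99 CPM in MII, 63.0 ± 16.47 CPM in GV oocytes), Nuf2 of the kinetochore 3.14-fold higher (156 ± 51.0 CPM in MII, 49.7 ± 27.4 CPM in GV oocytes) and the checkpoint gene Mad2l1 2.32-fold higher (1263 ± 401 CPM in MII, 546 ± 231 CPM in GV oocytes). The kinase genes Aurka, Aurkc and Plk1 overlapped between the groups.

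Chromosome condensation and cohesion genes included several that were higher in MII oocytes. Of 8 condensin subunits 5 were higher and 0 lower (median 1.11, 0.61 without GV oocyte 1 and up to 1.51 without GV oocyte 3). Smc4, an ATPase of both condensins, had 1691, 1364 and 657 CPM in MII oocytes and 117, 533 and 426 CPM in GV oocytes, 3.45-fold higher in MII, and Ncapg of condensin I averaged 266 ± 97.9 CPM in MII and 123.3 ± 72.1 CPM in GV oocytes. Cohesion matters in aged oocytes because cohesin on meiotic chromosomes is not replaced and wanes with age. Of 20 cohesin genes 8 were higher and 3 lower (median 0.42, but -0.28 without GV oocyte 1, -0.22 without MII oocyte 1 and 0.98 without GV oocyte 3). The acetyltransferase gene Esco1, which locks cohesin on chromatin, had 161, 126 and 122.9 CPM in MII oocytes, against 3.34, 12.9 and 36.8 CPM in GV oocytes, 7.72-fold higher in MII. Pttg1 (securin), which holds back the protease that cuts cohesin, had 11650.5, 8651 and 5644 CPM in MII oocytes and 4770.0, 3039 and 669.6 CPM in GV oocytes (3.06-fold). Sgo1, which shields centromeric cohesin, averaged 42.9 ± 4.05 CPM in MII and 15.8 ± 7.95 CPM in GV oocytes. The meiotic subunit gene Smc1b averaged 24.7 ± 20.1 CPM in MII and 6.65 ± 1.37 CPM in GV oocytes. Its partner Smc3 had 0.242, 35.3 and 32.1 CPM in MII oocytes and 29.6, 64.9 and 101.6 CPM in GV oocytes and overlapped. Proteins were not measured.

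Genes for the oocyte coat were lower. The zona pellucida, the shell that sperm bind, is made during oocyte growth. All 4 measured genes of the zona list were lower (median -3.12). Zp3 had 109.6, 165 and 207 CPM in MII oocytes, against 20778, 7924 and 2067 CPM in GV oocytes, 63.9-fold lower in MII. Zp1 was 12.8-fold and Zp2 5.88-fold lower, and Astl, the cortical granule protease that hardens the zona after fertilisation, was 3.31-fold lower, in each case with all MII oocytes below all GV oocytes. The subcortical maternal complex, a cytoplasmic assembly needed for the first cleavages, had 5 of 8 members lower and 2 higher (median -1.62). Ooep had 93.0, 228 and 446 CPM in MII oocytes and 7237, 2298 and 707 CPM in GV oocytes (13.3-fold lower), and Khdc3 75.9, 8.02 and 97.4 CPM in MII oocytes and 1419, 2455 and 658 CPM in GV oocytes (24.985-fold lower). Zbed3 of the same complex was 3.61-fold higher (3253 ± 1488 CPM in MII, 900.0 ± 461 CPM in GV oocytes) and Nlrp5 overlapped.

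Signals that the oocyte sends to its cumulus cells went both ways. Fgf8 was 38.2-fold lower (4.58 ± 4.56 CPM in MII, 175 ± 84.2 CPM in GV oocytes). Bmp15 had 365, 537 and 769 CPM in MII oocytes, against 132, 282 and 207 CPM in GV oocytes, 2.69-fold higher in MII, and the WNT agonist gene Rspo2 was 5.88-fold higher (819 ± 295 CPM in MII, 139 ± 32.3 CPM in GV oocytes). Gdf9 had 1156, 2904 and 3397 CPM in MII oocytes and 18966, 15589 and 1562 CPM in GV oocytes; GV oocyte 3 was below 2 of the MII oocytes. Gja4, the connexin of the channels between oocyte and cumulus, had 16.6, 17.4 and 48.2 CPM in MII oocytes and 1054, 1268 and 600.2 CPM in GV oocytes, 35.5-fold lower in MII. Of 15 oocyte transcription factors 5 were lower and 1 higher (median 0.12, but -0.15 without MII oocyte 2, -0.083 without MII oocyte 3 and -0.081 without GV oocyte 3). Figla, which turns on the zona genes, was 69.9-fold lower (2.08 ± 1.93 CPM in MII, 145 ± 131 CPM in GV oocytes) and Esrrb 193-fold lower (1.36 ± 1.19 CPM in MII, 263 ± 183 CPM in GV oocytes). Klf17, active in early embryos, was 8.27-fold higher (478 ± 102.04 CPM in MII, 57.7 ± 22.6 CPM in GV oocytes). Of 26 maternal effect genes of early cleavage 7 were higher and 7 lower (median -0.31, but -0.92 without GV oocyte 1 and 0.35 without GV oocyte 3), and of 15 oogenesin and oocyte NLRP genes 4 were higher and 2 lower (median 0.33).

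Chromatin genes went both ways. Of 25 replacement histones and chaperones 7 were higher and 8 lower (median 0.03, but -0.60 without MII oocyte 1, -0.11 without GV oocyte 1 and -0.089 without GV oocyte 2). Of 35 histone methyltransferases and demethylases 8 were higher and 4 lower (median 0.25, but -0.10 without MII oocyte 1). Suv39h2, which writes the heterochromatin mark on histone H3, averaged 101.5 ± 8.78 CPM in MII and 29.2 ± 18.9 CPM in GV oocytes. Zfp57, which protects imprints in the embryo, averaged 990.3 ± 472 CPM in MII and 252 ± 27.3 CPM in GV oocytes. The maintenance DNA methyltransferase gene Dnmt1 averaged 256 ± 108 CPM in MII and 208 ± 111 CPM in GV oocytes and overlapped. The oocyte linker histone gene H1foo had 1368, 5174 and 11031 CPM in MII oocytes, against 26737, 17482 and 7367 CPM in GV oocytes, and overlapped. Of 21 histone acetyltransferases and deacetylases 10 were lower and 2 higher (median -0.88). Replication-dependent histone mRNAs, which normally lack a poly(A) tail, had 9 of 26 members higher and 6 lower (median 0.40, but -0.32 without MII oocyte 3). Hist1h4c had 12.0, 43.7 and 256 CPM in MII oocytes and 9.80, 5.15 and 1.21 CPM in GV oocytes, whereas Hist1h2bc averaged 36.9 ± 15.2 CPM in MII and 671 ± 427 CPM in GV oocytes. Hist1h4c is 1 of many near-identical H4 genes, so its share of reads is uncertain.

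The metabolic lists had medians below that of all genes, by unequal margins. Of 22 glycolysis and lactate genes 13 were lower and 2 higher (median -1.47, and -0.74 without GV oocyte 3). Ldha had 2 counts in the MII oocytes together (95% interval 0.242 to 7.22) and 13.1, 19.2 and 438 CPM in GV oocytes, while Ldhb, the form that lets oocytes live on lactate and pyruvate, averaged 11330.3 ± 4718 CPM in MII and 13142 ± 10078 CPM in GV oocytes. Of 25 genes of the TCA cycle and pyruvate dehydrogenase 15 were lower and 3 higher (median -1.43), with Mdh2 at 21.1, 0.601 and 0.849 CPM in MII oocytes and 491, 435 and 303.9 CPM in GV oocytes. Of 37 glutathione and antioxidant genes 23 were lower and 2 higher (median -1.74). Gpx4, which detoxifies lipid peroxides, averaged 11.7 ± 3.02 CPM in MII and 403.05 ± 259 CPM in GV oocytes. Sod1, which removes superoxide, averaged 46.0 ± 12.4 CPM in MII and 424 ± 133 CPM in GV oocytes. Sterol synthesis (10 of 23 lower, 1 higher, median -0.84) and fatty acid oxidation (9 of 17 lower, 2 higher, median -1.04, and -0.54 without GV oocyte 3) lay below the median of all genes, with the squalene synthase gene Fdft1 at 64.2 ± 7.18 CPM in MII and 1236 ± 542 CPM in GV oocytes. The 43.5% of sterol genes that were lower was close to the 39% of all genes. Without GV oocyte 3 the glycolysis and fatty acid medians came nearer to that of all genes. Of 25 genes of the calcium store and egg activation 6 were higher and 9 lower (median -0.13): the calmodulin gene Calm2 was 14.0-fold lower, at 84.5 ± 47.1 CPM in MII and 1182 ± 401.9 CPM in GV oocytes. Among 22 BCL2 family and caspase genes 3 were higher and 7 lower (median -0.22, but 0.088 without GV oocyte 3). Bcl2l10, an oocyte survival factor, had 13765, 11769 and 16648 CPM in MII oocytes and 3437, 3356 and 2004 CPM in GV oocytes, 4.80-fold higher in MII.

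Of the machinery of nuclear transcription, 16 of 25 RNA polymerase subunits were lower and 3 higher (median -1.39), with the small shared subunit gene Polr2k at 7.55 ± 2.92 CPM in MII and 256 ± 159 CPM in GV oocytes. Of 58 splicing genes, with a median of -0.28, 25 were lower (43.1%) and 13 higher (22.4%), beside 39% and 16.1% of all genes. Among them Snrpd2 of the Sm ring averaged 8.09 ± 7.03 CPM in MII and 292 ± 170.2 CPM in GV oocytes. The nuclear pore, which is taken apart when the envelope breaks down and rebuilt in the zygote, had 5 of 25 genes higher and 6 lower (median 0.18, but -0.042 without MII oocyte 1 and -0.16 without GV oocyte 1). Nup37 averaged 951 ± 264 CPM in MII and 184 ± 70.1 CPM in GV oocytes, and Seh1l averaged 246 ± 129.7 CPM in MII and 33.5 ± 4.02 CPM in GV oocytes. The m6A writer gene Wtap was 4.69-fold higher (207 ± 16.3 CPM in MII, 44.2 ± 18.007 CPM in GV oocytes). Small RNA pathway genes had 10 of 24 members lower and 0 higher (median -0.77). DNA repair genes had 20 of 56 lower and 11 higher (median -0.29, but 0.033 without GV oocyte 3). The shares lower were 41.7% and 35.7%, close to the 39% of all genes, and 19.6% of the repair genes were higher, beside 16.1%.

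The next ranking took genes that reached a mean of 20 CPM or more in either group and whose oocytes did not overlap. It left out predicted genes, Riken clones and pseudogenes. The 20 with the largest negative differences (of 1609) ran from -8.75 to -6.63. They were led by Mos and held 4 ribosomal protein genes (Rps27a, Rpl3, Rpl23a, Rps13) and genes of mitochondrial energy metabolism (Ndufa9, Atp5o, Mdh2 and the electron transfer flavoprotein gene Etfb). Also among them were Psmc3ip, which acts in meiotic recombination and had 4 counts in the MII oocytes together (95% interval 1.09 to 10.2) and 262, 199 and 93.6 CPM in GV oocytes, and Upp1, a pyrimidine salvage enzyme, at 4.00, 4.81 and 9.98 CPM in MII oocytes and 1875, 849.5 and 289.8 CPM in GV oocytes. Limd2 had no count in any MII oocyte and was at least 194-fold lower. The median 3' untranslated region of these 20 was 104.5 bases, and TTTTAT or TTTTAAT stood in 3 of them. Among the genes left out, the pseudogenes Gm28661 and Gm10925 had differences of 6.30 and 5.15. The 20 largest positive differences in the ranking (of 1002) were smaller in size than the negative ones, from 2.85 to 3.86. Wdr92, a cofactor in assembling dynein, had 85.03, 212 and 89.4 CPM in MII oocytes and 0.668, 15.5 and 18.8 CPM in GV oocytes. Shoc2, a scaffold of RAS-MAPK signalling, had 119.7, 101.8 and 36.9 CPM in MII oocytes and 1.34, 6.66 and 7.88 CPM in GV oocytes. Also among them were Slbp, Klf17, Apela, Ccna2, Esco1 and the nuclear import receptor gene Kpna3 (236 ± 60.2 CPM in MII, 31.7 ± 23.6 CPM in GV oocytes). Of the 19 that had an annotated 3' untranslated region, 16 held TTTTAT or TTTTAAT, and the median length was 1532 bases. Since the differences chose both sets, these lengths and counts describe them only.

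Scaled by transcript length, the most abundant mRNA of MII oocytes was Dppa3, a maternal factor that guards DNA methylation in the zygote, at 15883 ± 2251 TPM (the share of a library's transcripts after scaling by length) in MII and 7929.8 ± 2853 TPM in GV oocytes. Securin (Pttg1) followed at 14892 ± 3939 TPM in MII and 4369.9 ± 2007 TPM in GV oocytes, then Bcl2l10 at 12627 ± 3966 TPM in MII and 2586 ± 480.0 TPM in GV oocytes. In CPM the groups overlapped for Dppa3 and did not for Pttg1 and Bcl2l10. In GV oocytes the linker histone gene H1foo led, at 6220 ± 5909 TPM in MII and 15655 ± 2957 TPM in GV oocytes. Elobl came next, at 662 ± 665 TPM in MII and 10724 ± 2951 TPM in GV oocytes. Ldhb stood among the 5 most abundant in both, at 9203 ± 3483 TPM in MII and 9073 ± 4873 TPM in GV oocytes. Outside coding genes, 363 long intergenic RNAs had a median of -0.04, with 23.7% higher and 29.5% lower, beside -0.55 for 10830 protein-coding genes, of which 15.7% were higher and 39.7% lower. The part of the pelleted nucleus in this was not tested.

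The same comparison could be made at 6 weeks in other oocytes (IVM-MII-6wk against GV-6wk, 3 each, also C57BL/6 wild type without MSC), which share no library with those of 12 months. By 2-fold, 4725 genes were lower there (39.3%) and 2010 higher (16.7%), with a median of -0.52. Of the genes lower at 12 months 3558 were also lower at 6 weeks, which is 75.9% of the 12-month list and 75.3% of the 6-week list. Of the genes higher at 12 months 1141 were also higher at 6 weeks, 58.9% of the 12-month and 56.8% of the 6-week list. Only 41 genes higher at 12 months were lower at 6 weeks, and 85 lower at 12 months were higher at 6 weeks. All 20 genes with the largest negative differences in the ranking above were lower by 2-fold at 6 weeks. Of the 20 with the largest positive ones in that ranking, 19 were higher. List medians at 12 months and 6 weeks were -4.71 and -4.64 for small-subunit ribosomal proteins, -2.95 and -4.20 for complex I, 1.46 and 1.79 for mitochondrially encoded mRNAs, -3.12 and -4.69 for zona proteins and -3.04 and -4.00 for tubulins. They were 1.11 and 1.497 for condensins, 0.42 and 0.92 for cohesins and 0.90 and 1.27 for mRNAs translated on maturation.

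**Figure D5:**
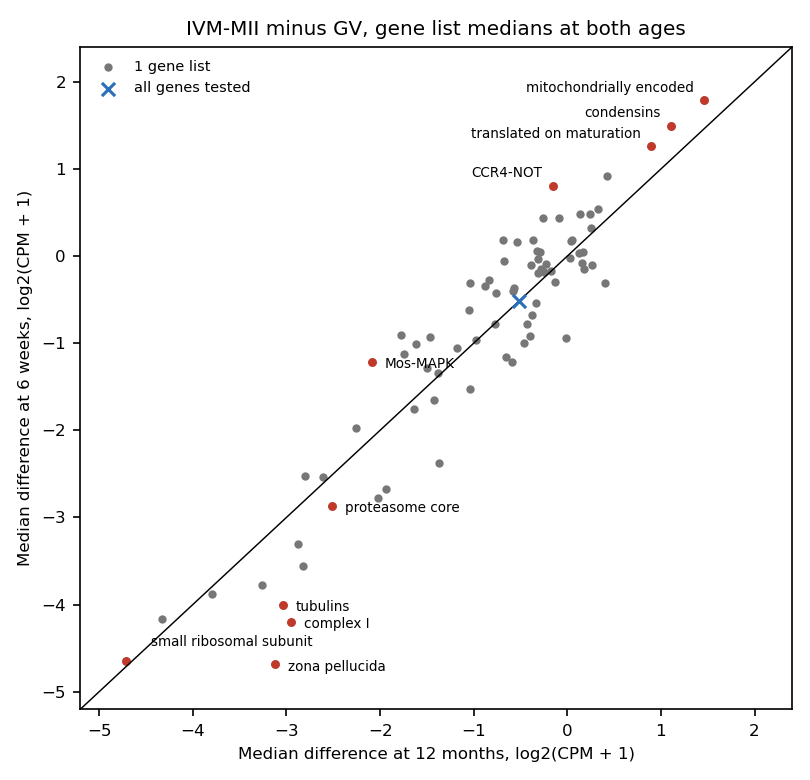
Median difference (MII minus GV, log2(CPM + 1)) of each gene list at 12 months (horizontal) and at 6 weeks (vertical). The 2 ages share no library, and the diagonal marks equal medians; small-subunit ribosomal proteins lie at -4.71 and -4.64, complex I at -2.95 and -4.20 and mitochondrially encoded mRNAs at 1.46 and 1.79.

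A 6-week MII oocyte departed from the others of its group. Its Mos level was 1261 CPM where the other 6-week MII oocytes had 4.97 and 6.28 CPM, beside 955, 801 and 844 CPM in 6-week GV oocytes. The difference for Mos was -8.75 at 12 months and -4.51 at 6 weeks, or -7.04 at 6 weeks without that oocyte. Without it, 5298 genes were lower and 1782 higher at 6 weeks, the median over all genes was -0.74, and the medians at 6 weeks became -3.60 for complex I, 0.77 for condensins and 0.17 for cohesins. Genes were also ranked by the gap between the ages. They had to reach 20 CPM in any of the groups compared and not overlap at 12 months. Predicted genes, Riken clones and pseudogenes were left out, such as Gm28661, with 6.30 at 12 months and -3.64 at 6 weeks. Of the 5 each way with the largest gaps in this ranking, the ones lower by less at 12 months were Hyal2, Errfi1, Ost4, Qars and Psmf1. Errfi1, an inhibitor of EGF receptor signalling, had 73.6, 61.5 and 52.4 CPM in MII oocytes and 87.3, 159.7 and 97.7 CPM in GV oocytes at 12 months, a difference of -0.83 beside -4.97 at 6 weeks. Hyal2, a hyaluronidase, averaged 11.7 ± 1.57 CPM in MII and 56.8 ± 27.7 CPM in GV oocytes at 12 months, a difference of -2.08 beside -6.35 at 6 weeks. On the other side stood Fndc3b, Mos, Nupr1, Pabpc1 and Mgst1. Fndc3b had 0.485, 0.401 and 0 CPM in MII oocytes and 3.34, 3.39 and 82.1 CPM in GV oocytes, so its difference rested on GV oocyte 3. The same oocyte held 259 CPM of Nupr1 and 147 CPM of Pabpc1. Mgst1, a microsomal glutathione transferase gene, had no count in any MII oocyte and 21.8, 6.03 and 32.4 CPM in GV oocytes, a difference of -4.13 beside -0.28 at 6 weeks. None of these differences between ages was tested.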

How the data were processed

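Single-cell SMART-seq2 libraries of 3 IVM-MII-12m and 3 GV-12m oocytes were compared, with 3 IVM-MII-6wk and 3 GV-6wk oocytes beside them. The deposited table of each oocyte gives expected counts, TPM and FPKM for 47069 Ensembl genes, per the file headers. FPKM was not used, and TPM as deposited ranked abundant mRNAs and served as an alternative. The submitters' processing notes name the aligner TopHat2 2.1.1 with Cufflinks, the trimmer Trim Galore 0.4.5, FastQC 0.11.8 and the builds GRCm38.p5 and mm10; the tool behind the expected counts is not given in the sources used here. Reads shared by paralogs and pseudogenes make such genes uncertain. Symbols, coordinates and 3' untranslated regions came from GENCODE M21 on GRCm38, which matched 46488 identifiers.

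Expected counts were rounded, filtered with filterByExpr by group over all 18 libraries and scaled by TMM (edgeR 4.0.16, R 4.3.3). Differences used a pseudocount of 1 CPM, which shrinks those of low genes. A fold is mean CPM over mean CPM, and a group without counts was set to a floor of 3 counts per library. Poisson intervals (95%) and floors cover counting error only, since reads carry no molecular identifiers. Depth was 4583562 to 9193559 counts per oocyte. Tables and figures were made in Python 3.11.15 (pandas 2.3.3, Matplotlib 3.10.9, SciPy 1.17.1, NumPy 2.4.6). The computation of differences was run on simulated counts in which 200 genes were changed, equally up and down. Those counts were scaled by the same totals that made them, so the scaling itself was not tested.

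The comparison, the gene lists and the tests were chosen with earlier results of these data known. Of 76 lists, written by hand from textbook knowledge, 1869 members were in the files and 1651 were measured; 11 symbols did not match, and the text gives most lists. Named genes were the 20 largest differences each way (at least 20 CPM in the higher group, no overlap, no predicted gene), the 6 largest and 2 smallest of each list, a fixed set, and the 5 each way that differed most between the ages, 596 in all, not all of which are reported here. Rps27l, mt-Nd4l, Gja1, the other granulosa markers, the abundant Elobl and the pseudogenes Gm28661 and Gm10925 were named after their values were seen. A gene counts as higher or lower past 2-fold of the log2 difference. Alternatives were RLE scaling, TPM, totals without mitochondrial genes, other filters and pseudocounts, title prefixes and each oocyte left out. The comparison within bins of length and AT content, the values without GV-12m oocyte 3 in those bins and the 6-week values without 1 oocyte were added after the data were seen.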

Additional observations from a re-analysis of the deposited data

Results flagged for a closer look

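Gnas, which encodes the alpha subunit of the stimulatory G protein that keeps cAMP high and the oocyte in prophase arrest, moved in opposite directions on maturation at the 2 ages. At 12 months it had 125, 50.3 and 79.6 CPM in MII oocytes, against 144, 132 and 158 CPM in GV oocytes, so every MII oocyte was below every GV oocyte. At 6 weeks it had 116, 144 and 154 CPM in MII oocytes, against 95.2, 85.6 and 108 CPM in GV oocytes, so every MII oocyte was above every GV oocyte. The difference at 12 months minus that at 6 weeks was -1.37 on the log2(CPM + 1) scale, and it was not tested. At neither age did Gnas reach 2-fold. It was flagged by its values among the 12037 genes, and the share of genes that cross over in this way is not given here.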

How the results depend on the processing

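No paired analysis was possible because the replicate numbers follow accession order and the labels pair no oocytes. Title prefixes, unexplained in the labels, put 2 MII and 1 GV oocytes under O04, 1 of each under O05 and a GV oocyte alone under O01. No count of genes and no list median that was called 2-fold or more reversed in any alternative run.

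With RLE scaling 240 genes were higher by 4-fold, and the medians were -0.76 for initiation factors and -0.19 for replacement histones; it moved the median of all genes to -0.68. With TPM the medians were -1.13 for the Mos-MAPK cascade and -0.99 for the TCA cycle, and the mitochondrial share differed by 13.8 points. With a minimum of 5 CPM the granulosa median was -2.85. A pseudocount of 0.1 gave 642 genes higher and 4126 lower by 4-fold and medians of -0.83 over all genes, -1.07 for initiation factors, -2.99 for the Mos-MAPK cascade, -2.09 for RNA polymerase, -0.76 for the calcium list, -1.62 for lysosomes and -3.36 for granulosa markers. A pseudocount of 5 gave 2900 genes lower by 2-fold, 187 higher and 1212 lower by 4-fold, and medians of -4.15 for small-subunit and -3.53 for all ribosomal proteins, -2.16 for import, -0.83 for Mos-MAPK, -2.34 for tubulins, -1.07 for RNA polymerase, -0.82 for antioxidants, -0.42 for fatty acids and -0.70 for granulosa markers. Within title prefixes the medians were -1.06 for initiation factors, -0.80 for maternal effect genes, -0.35 for replacement histones, -0.44 for the calcium list and -0.98 for oocyte markers. Requiring 5 or 10 counts, MII minus GV oocytes differed by -3311 and -2529.7 detected genes. The share of genes with TTTTAT or TTTTAAT differed between higher and lower genes by 33.9 points over the whole 3' untranslated region and by 14.97 in its last 100 bases. For these shifts the cause was not tested, beyond the pseudocount's own weight on low values.

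With each oocyte left out, medians ran from -0.76 to -0.019 for SCF ligases, -4.42 to -3.71 for all ribosomal proteins, -0.96 to -0.10 for the calcium list, -1.80 to -0.70 for granulosa markers, 0.42 to 1.13 for mRNAs translated on maturation, -0.92 to 0.35 for maternal effect genes, -2.34 to -0.999 for oocyte markers, -0.60 to 0.37 for replacement histones, -2.45 to -1.17 for sperm binding, -0.91 to -0.28 for initiation factors and -3.32 to -2.46 for tubulins. Among the named genes past 2-fold, those that changed sign with an oocyte left out were Sirt3 (-2.18 to 0.015), Hnrnpul2 (-0.058 to 2.24, and -0.395 within prefixes), Bmpr2 (-2.65 to 0.060) and Cnot6 (-2.52 to 0.57). Depth limits genes of a few counts, for which single reads decide a difference.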
